A study of Mus musculus with 12 samples.

Results

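The nuclear-encoded genes of the respiratory chain and ATP synthase were followed in mouse liver. They were taken by symbol from the series table, as names that begin with Nduf, Cox4 to Cox8, Uqcr or Atp5 or are Sdha, Sdhb, Sdhc or Sdhd. Names with "-ps" were left out, and a mean of at least 1 TPM over 12 libraries was required. Of 57010 genes in the table, 115 carried such a name and 91 became members, with 48 genes named for complex I, 4 for complex II, 8 for complex III, 14 for complex IV and 17 for complex V, the ATP synthase. Of the names left out, 15 held "-ps" and 9 were under the level, of which 6 were listed at 0 in every library, a second gene named Atp5o among them. The level requirement used the mean over both groups and no difference between them. Just inside it were Cox8b (1.09 TPM), Cox6b2 (1.13 TPM), Ndufa4l2 and Atp5g2 (1.3 TPM), and just outside were Cox6a2 (0.613 TPM) and Cox4i2 (0.332 TPM).

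The study gave male wild-type C57BL/6J mice selenium-enriched Aspergillus oryzae A02, a strain of a filamentous food fungus, and profiled their liver RNA by sequencing. The selenium group (6 libraries) received 0.5 mg selenium per kg in saline by daily gavage, and the control group (6 libraries) is labelled as untreated, without mention of a saline gavage. Both groups ate a normal diet and were 6 weeks old at the start, the protocol counts 10 mice in a group, and the labels give 8 weeks in one place and 14 weeks in another. Fungus and selenium were given as 1 preparation and cannot be told apart here, and "selenium" names the group only. Values are TPM, a relative transcript abundance that corrects for transcript length and scales every library to the same total, so the depth behind a value is unknown. The labels number liver samples, so each library is read as 1 mouse, and p-values measure the spread between these samples.

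The respiratory chain passes electrons from NADH (complex I) and succinate (complex II) through complex III to oxygen at complex IV, and pumps protons across the inner mitochondrial membrane. ATP synthase lets the protons flow back and makes ATP. A few core subunits of complexes I, III, IV and V are encoded in mitochondrial DNA, and the nuclear genome supplies all of complex II and the remaining subunits, so both genomes are drawn on for each of the other complexes. Several complex IV subunits exist as a general (or liver) isoform and as a tissue isoform used in heart and skeletal muscle, lung or testis.

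RefSeq promoter windows (250 bases before to 50 after the start, build GRCm38.p6) are printed for both genes of a pair of isoforms, Cox8b with Cox8a and Cox7a1 with Cox7a2, because the muscle isoforms behaved unlike the general ones across libraries. The window of Ndufaf4 is added because its groups did not overlap. The windows lie at chr7:140900397-140900696 (minus strand) for Cox8b, chr19:7217567-7217866 (minus strand) for Cox8a, chr7:30183921-30184220 (plus strand) for Cox7a1, chr9:79759804-79760103 (minus strand) for Cox7a2 and chr4:24897833-24898132 (plus strand) for Ndufaf4. Capitals mark the motif of ETS factors such as GABPA (CCGGAAG, in Cox8a on the opposite strand) or of NRF1 (GCGCA followed directly by its reverse complement TGCGC, in Ndufaf4).
Cox8b: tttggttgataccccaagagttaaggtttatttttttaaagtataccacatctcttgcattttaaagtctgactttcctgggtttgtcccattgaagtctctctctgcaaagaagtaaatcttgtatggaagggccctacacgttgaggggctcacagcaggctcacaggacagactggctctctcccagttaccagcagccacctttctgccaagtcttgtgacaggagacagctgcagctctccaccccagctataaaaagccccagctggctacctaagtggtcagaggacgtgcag
Cox8a: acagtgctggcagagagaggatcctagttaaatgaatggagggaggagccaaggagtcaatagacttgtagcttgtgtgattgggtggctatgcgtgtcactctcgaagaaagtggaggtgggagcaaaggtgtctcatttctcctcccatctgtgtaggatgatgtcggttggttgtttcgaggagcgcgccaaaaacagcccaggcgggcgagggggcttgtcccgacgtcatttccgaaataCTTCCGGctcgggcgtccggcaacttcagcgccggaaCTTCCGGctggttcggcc
Cox7a1: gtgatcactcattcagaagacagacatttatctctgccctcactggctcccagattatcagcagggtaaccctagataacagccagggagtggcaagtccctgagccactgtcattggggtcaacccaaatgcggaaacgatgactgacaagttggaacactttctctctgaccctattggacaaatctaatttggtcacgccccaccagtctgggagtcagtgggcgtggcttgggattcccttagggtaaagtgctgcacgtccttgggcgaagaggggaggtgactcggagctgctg
Cox7a2: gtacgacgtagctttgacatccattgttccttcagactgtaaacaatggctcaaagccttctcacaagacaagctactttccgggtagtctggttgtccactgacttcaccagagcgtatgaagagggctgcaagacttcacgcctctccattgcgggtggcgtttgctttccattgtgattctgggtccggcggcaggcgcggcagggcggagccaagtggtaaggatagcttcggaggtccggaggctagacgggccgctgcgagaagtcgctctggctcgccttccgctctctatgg
Ndufaf4: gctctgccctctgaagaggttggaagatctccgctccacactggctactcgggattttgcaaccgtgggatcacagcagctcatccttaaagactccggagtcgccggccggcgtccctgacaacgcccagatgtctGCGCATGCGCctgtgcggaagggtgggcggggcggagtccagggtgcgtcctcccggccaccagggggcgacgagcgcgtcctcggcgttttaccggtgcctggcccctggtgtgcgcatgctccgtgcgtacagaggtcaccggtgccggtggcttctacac
The Cox8b window held 2 CpG dinucleotides and none of the motifs searched, and the Cox8a window held 19 CpGs and 2 ETS motifs. The Cox7a1 window held 7 CpGs, the Cox7a2 window 20 and the Ndufaf4 window 28.

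Mitochondrial-encoded genes held 11.6 ± 1.97% of all TPM in selenium libraries and 17.3 ± 3.43% in controls (SD, n = 6 each), and the major urinary protein (Mup) genes, secreted carriers made by hepatocytes, held 33.0 ± 5.07% with selenium and 24.1 ± 6.82% in controls. Since TPM sums to the same total in every library, a class this large bears on the TPM of all other genes. Alb, the hepatocyte marker albumin, had 15341 to 22548 TPM in selenium libraries and 10946 to 28130 TPM in controls. The labels give liver as the tissue and hepatocyte as the cell type, and markers of other liver cells were also detected. Kupffer cell (liver macrophage) markers summed to 36.8 to 148 TPM in selenium libraries and 30.4 to 85.1 TPM in controls. Stellate cell markers summed to 17.3 to 52.75 TPM with selenium and 39.2 to 66.95 TPM in controls. Sinusoidal endothelial markers summed to 11.8 to 28.15 TPM with selenium and 6.75 to 34.2 TPM in controls. Selenium library 3 was the highest of its group in each of these sums. For muscle markers 1 library stood apart. Selenium library 4 held 179 TPM of 6 striated muscle markers summed, against at most 0.93 TPM in any other library, and counts are also given without it. Spp1, listed here as a bile duct marker, was at 129 TPM in selenium library 3 and 266 TPM in control library 5. Elsewhere it was at most 35.0 TPM. The other bile duct markers, Krt19, Epcam and Sox9, reached at most 3.25 TPM. Krt19 and Epcam were highest in control library 6. Sox9 was highest in control library 5 (2.74 TPM), followed by selenium library 3 (2.54 TPM). Col1a1, in the stellate list, was at 8.17 TPM in selenium library 3 and 8.4 TPM in control library 5. It was at most 1.44 TPM elsewhere, while control library 5 was the lowest control for the other stellate markers. Markers of red blood cells summed to the most in control library 6 (2170.0 TPM, against at most 792 TPM elsewhere). In bulk tissue, fewer cells of a type and less RNA per cell cannot be told apart.

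No member passed the limma test in either direction, and the authors' deposited table, set out further on, calls 1. On log2(TPM + 1), the test took in the 89 of 91 members listed at 1 TPM or more in 6 or more libraries, by limma, a linear model fitted over all 9980 such genes, with Benjamini-Hochberg adjustment over all of them and a threshold of 0.05. Among all genes tested, 0.02% were called higher and 0.311% lower with selenium, so a count of 0 among 89 members is near that background. At an unadjusted p under 0.05, 2 members were higher (7.01% of all genes tested) and 9 were lower (11.4% of all genes tested). These unadjusted counts turn with the scaling, at 4 higher and 2 lower with median-of-ratios scaling and 0 higher and 19 lower with TPM rescaled without mitochondrial-encoded genes. No member had every selenium library above every control (0.16% of all genes tested), and 1 member, Ndufaf4, had every selenium library below every control (1.47% of all genes tested). The members that were not tested were Cox8b and Ndufa4l2. Without selenium library 4 the count past the threshold was also 0.

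The members' log2 changes were small and lay mostly below 0. Their median was -0.10, with 23 positive and 66 negative, beside a median of -0.03 over all genes tested, of which 4529 were positive and 5451 negative. The lowest was Cox6b2 (-0.67) and the highest Sdha (0.58). The split between positive and negative depends on how libraries are scaled. With median-of-ratios scaling the members' median was -0.02 with 38 of 89 positive, beside 0.04 over all genes. With TPM rescaled without mitochondrial-encoded and Mup genes it was -0.02 with 38 of 90 positive, beside 0.03 over all genes. With TPM rescaled without mitochondrial-encoded genes it was -0.20 with 10 of 90 positive, where the median over all genes was -0.11. Without selenium library 4 it was -0.16 with 19 of 89 positive, beside -0.05 over all genes.

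**Figure D1:**
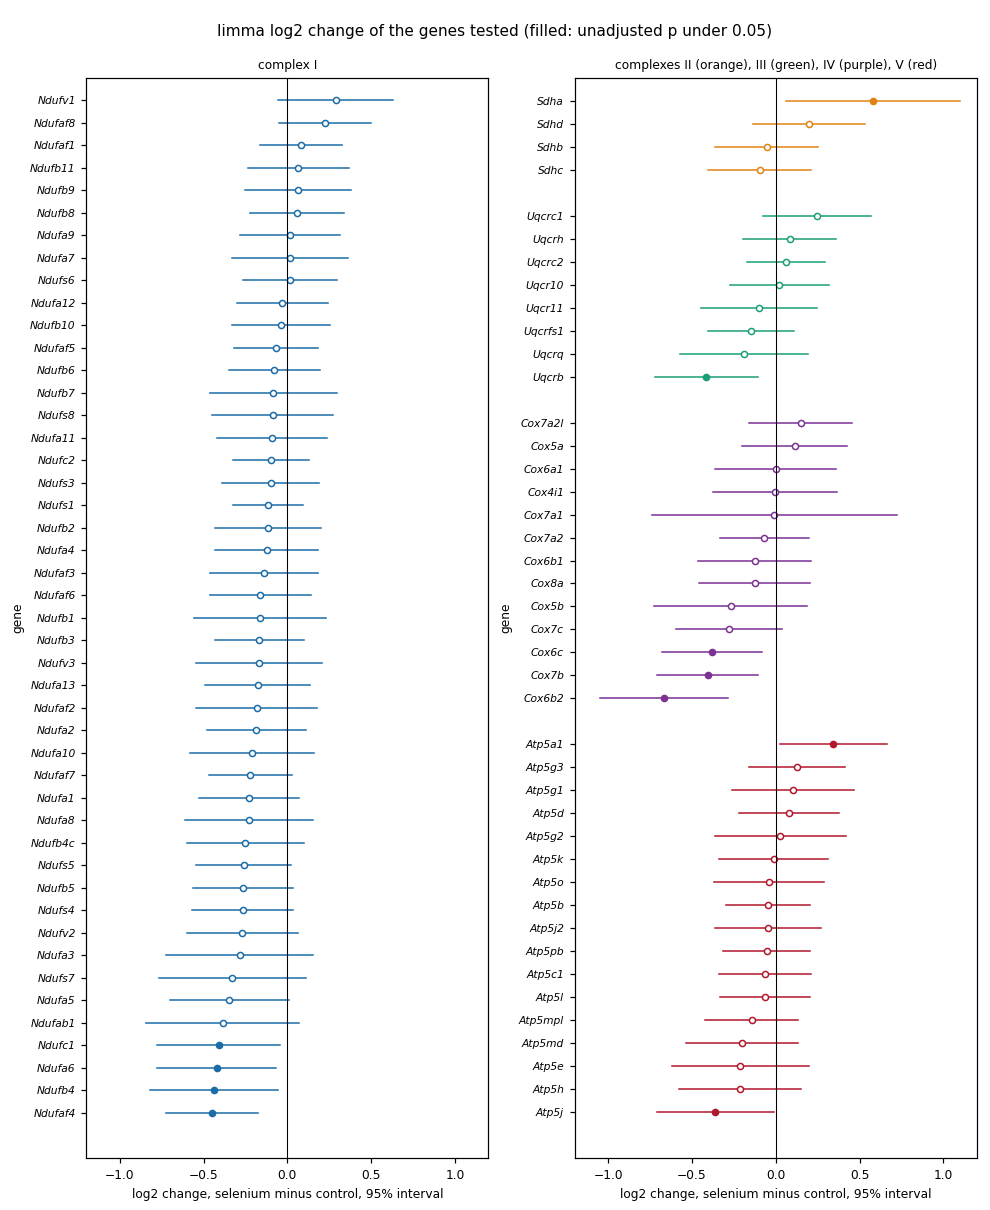
Log2 change of log2(TPM + 1), selenium minus control, on the horizontal axis for the genes tested, all but 1 of the 89, by complex, with 95% intervals of the limma estimate; filled circles have an unadjusted p under 0.05. All but 11 intervals include 0, and the filled circles are Sdha and Atp5a1 to the right and 9 genes to the left.

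The members differed more between selenium libraries than between the groups. Their TPM summed to 13569.9 in selenium library 1 and 13664.7 in selenium library 3, while selenium libraries 2 and 4 held 20814.9 and 20912.9 TPM. Selenium libraries 5 and 6 lay between, at 16911.9 and 16940.2 TPM, and the 6 controls ran from 16629.9 to 20068.9 TPM. The group means were 17136 ± 3245 TPM with selenium and 18283 ± 1506 TPM in controls (SD, n = 6 each), a difference smaller than either SD.

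Most members shared this order. Selenium library 1 or 3 was the lowest of the selenium group in 78 of 91 members, against 30.2% of all genes tested, and selenium library 2 or 4 was the highest in 82 of 91 members, against 39.2% of all genes tested. These libraries were picked from the members' own sums, so the excess over all genes tested is partly built in. The SD was wider in the selenium group than in controls for 78 of 91 members (85.7%), against 64.6% of all genes tested. As a share of the TPM outside mitochondrial-encoded and Mup genes, the members made up 3.08 ± 0.367% with selenium and 3.12 ± 0.135% in controls, with selenium library 3 lowest at 2.49%. Selenium library 1 also held the largest Mup share (39.8%), and control library 5 the smallest (12.97%) and the largest mitochondrial-encoded share (22.8%). The part of these shares in the members' order was not tested.

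**Figure D2:**
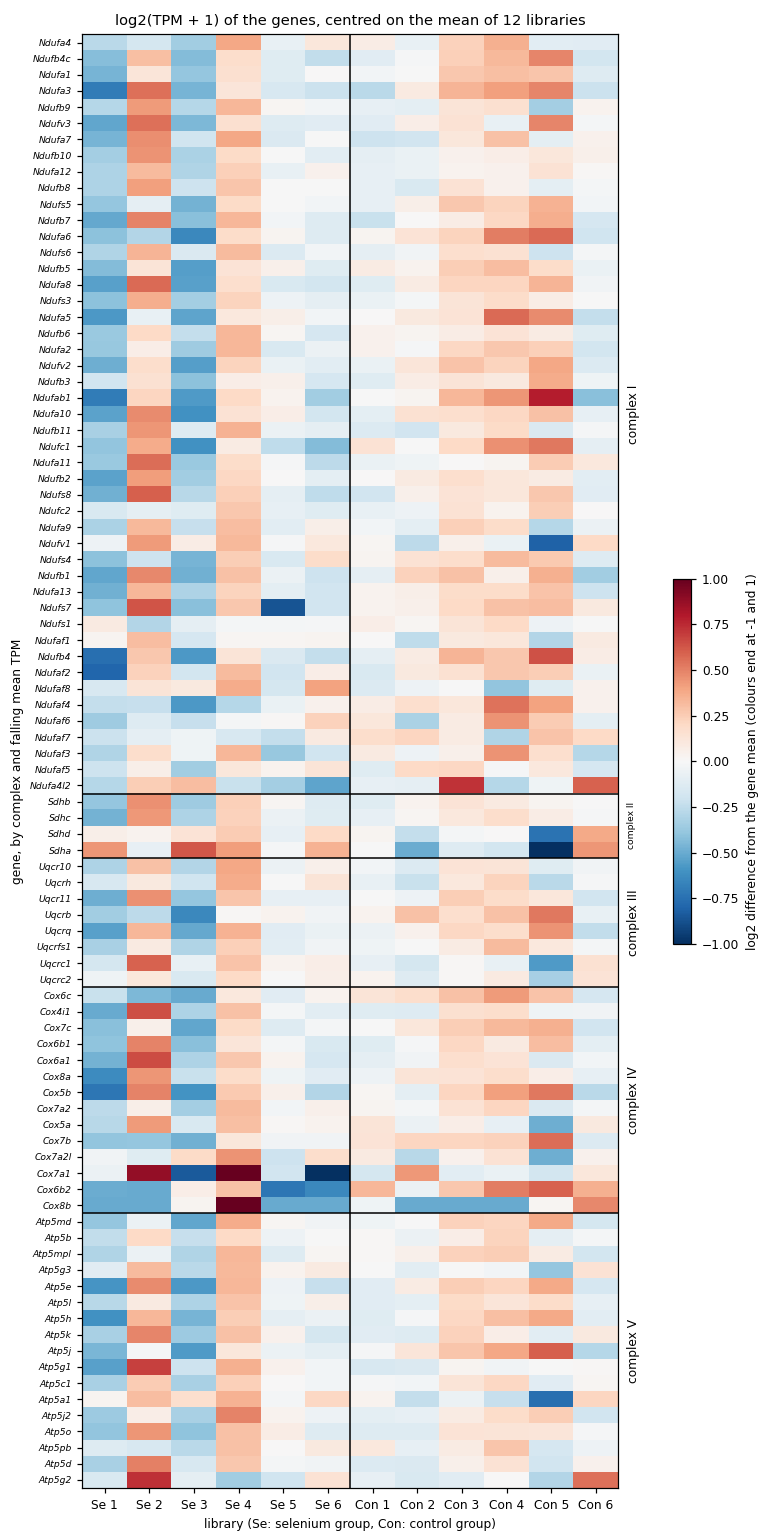
Each row is 1 gene, for all but 1 of the 91 genes, grouped by complex and ordered by mean level, and each column is 1 library, selenium libraries on the left and controls on the right; colour gives log2(TPM + 1) minus the gene's mean over 12 libraries, with colours ending at -1 and 1. Selenium libraries 1 and 3 are mostly blue and selenium libraries 2 and 4 mostly red, while control library 5 holds both strong blue (Sdha, Ndufv1, Atp5a1) and strong red (Ndufab1, Ndufb4) cells.

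**Figure D3:**
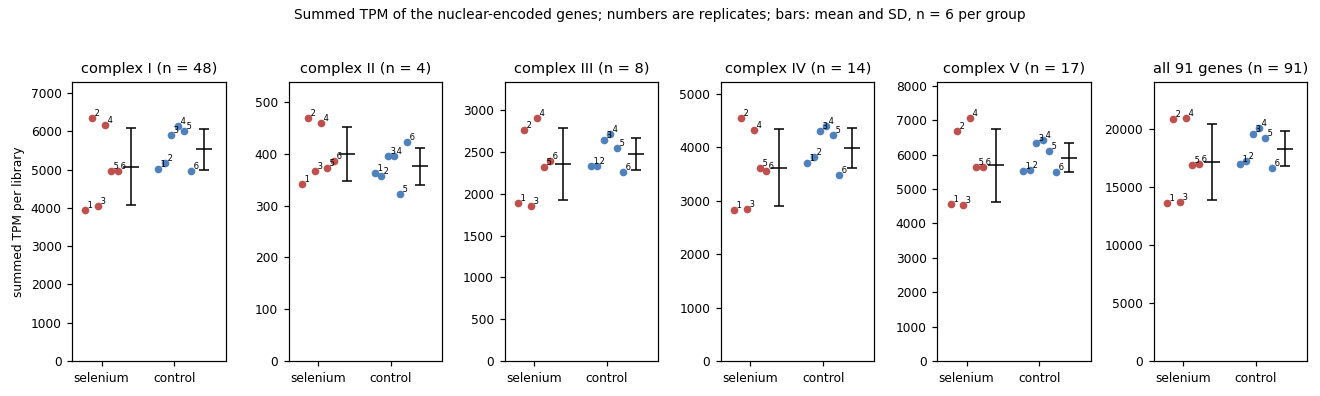
Summed TPM per library for each complex and for all 91 genes, selenium left of control in every panel, with the replicate number beside each point and the mean and SD (n = 6 per group) as bars; axes start at 0 and differ between panels. In each panel the selenium libraries spread more widely than the controls, and selenium libraries 2 and 4 are the highest of their group.

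Complex I is the entry point for electrons from NADH, and its nuclear genes fall into the redox core that binds NADH and holds iron-sulfur clusters, the accessory subunits around it and assembly factors that are not in the finished enzyme. The 48 members named for it summed to 5072 ± 1009.8 TPM with selenium and 5530.5 ± 536 TPM in controls. That sum includes Ndufa4 (mean 494 TPM) and Ndufb4c (mean 319 TPM), whose assignment is described below. Of the 47 tested, 10 had a positive change and 37 a negative one, with a median of -0.16. Mean levels of the 48 over 12 libraries had a median of 98.2 TPM and reached 494 TPM. The highest by level was Ndufa4, a small protein first assigned to complex I and now known as a part of complex IV, with 383, 447 and 639 TPM in selenium libraries (lowest, median, highest), against 452, 489 and 623 TPM in controls. Of its selenium libraries 3 lay below every control and 1 above every control, and the log2 change was -0.12 (95% interval -0.43 to 0.18). Ndufa4l2, its paralogue, was near the level limit, with 0.44, 0.745 and 1.58 TPM in selenium libraries (lowest, median, highest), against 0.71, 0.99 and 2.43 TPM in controls.

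In the redox core, 2 of 7 changes were positive and 5 negative, with a median of -0.10. Ndufv1, which binds NADH and the flavin, had 58.3, 64.4 and 81.5 TPM in selenium libraries (lowest, median, highest), against 34.2, 59.4 and 69.7 TPM in controls. Control library 5 was far below the other controls, and 5 of 6 selenium libraries lay above the control median. The log2 change was 0.29 (95% interval -0.06 to 0.63), with an adjusted p of 0.367 (limma). Ndufs7, an iron-sulfur subunit near the quinone site, had a negative change of -0.33 (95% interval -0.77 to 0.11). Ndufs3, also in the core, averaged 113 ± 24.3 TPM with selenium and 119.6 ± 7.99 TPM in controls. Ndufs1, the largest of the iron-sulfur subunits, averaged 32.7 ± 2.89 TPM with selenium and 35.5 ± 2.35 TPM in controls.

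Among the accessory subunits 25 of 31 changes were negative, with 6 positive and a median of -0.17, and none passed the adjusted test. Their negative count was 22 of 31 with median-of-ratios scaling and 31 of 31 with TPM rescaled without mitochondrial-encoded genes. Ndufa6, a subunit of the LYR-motif family, had 85.5, 116 and 153 TPM in selenium libraries (lowest, median, highest), against 117, 153 and 200.1 TPM in controls. All 6 selenium libraries lay below the control median, and 3 of them lay below every control. Its log2 change was -0.42 (95% interval -0.78 to -0.07), with an adjusted p of 0.198 (limma). Ndufab1, the mitochondrial acyl carrier protein, averaged 86 ± 23.2 TPM with selenium and 113 ± 32.9 TPM in controls, with a change of -0.39 (95% interval -0.84 to 0.07). Ndufa1, a small membrane subunit, had 185, 246 and 286 TPM in the selenium group, against 233, 282 and 315 TPM in controls, with overlapping groups and a change of -0.23. Ndufc1, another small membrane subunit, also missed the threshold at -0.41 (95% interval -0.78 to -0.05) with an adjusted p of 0.22 (limma).

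Ndufb4, a membrane-arm subunit, and Ndufb4c, a copy of it, have to be read together. In GENCODE M21, an annotation on an older build than the files', Ndufb4c is a processed pseudogene, and 35.2% of the 75-base stretches of Ndufb4 also occur in another gene, Ndufb4c most often. The copy held far more of the signal. Ndufb4c had 231, 276 and 385 TPM in selenium libraries (lowest, median, highest), against 275, 340.4 and 440.2 TPM in controls, and Ndufb4 had 13.8, 20.8 and 29 TPM in selenium libraries (lowest, median, highest), against 22.5, 27.2 and 37.8 TPM in controls. Summed, they gave 313 ± 70.0 TPM with selenium and 375 ± 69.8 TPM in controls. The log2 changes were -0.44 (95% interval -0.82 to -0.05) for Ndufb4 and -0.25 (95% interval -0.60 to 0.10) for Ndufb4c, with adjusted p of 0.216 and 0.437 (limma), and how reads were split between the copies was not tested.

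Ndufaf4, an assembly factor of the complex I membrane arm, was the member whose groups did not overlap. It had 7.18, 9.37 and 11.5 TPM in selenium libraries (lowest, median, highest), against 11.6, 12.4 and 16.8 TPM in controls. All 6 selenium libraries lay below all 6 controls, although selenium library 6 (11.54 TPM) and control library 6 (11.59 TPM) nearly met. Its change on the log2 scale was -0.45 (95% interval -0.73 to -0.18). Limma's unadjusted p was 0.00323 and its adjusted p 0.11, and the exact permutation test gave p = 0.002165, the smallest that 924 labellings allow, among 36 genes tested this way. That permutation p is fixed by the lack of overlap and is not adjusted. Of the 8 Ndufaf genes, 6 changes were negative and 2 positive, and Ndufaf8 was the highest at 0.22.

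Complex II, succinate dehydrogenase, is the only complex made wholly from nuclear genes and is also an enzyme of the citrate cycle. Its 4 genes summed to 399 ± 52.1 TPM with selenium and 376 ± 35.7 TPM in controls. Sdha, the flavin-binding subunit that oxidises succinate, had 55.8, 77.2 and 91.2 TPM in selenium libraries (lowest, median, highest), against 22.15, 52.7 and 80.5 TPM in controls. All 6 selenium libraries lay above the control median, but control library 6, the highest control at 80.5 TPM, was above 5 of them, and control library 5 was far below all others. Limma estimated a log2 change of 0.58 (95% interval 0.06 to 1.10), the largest positive one among the members, with an adjusted p of 0.223 (limma). The exact permutation test, on the same values and not adjusted over its 36 genes, gave p = 0.0433. Without control library 5 the log2 change was 0.37.

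The other 3 subunits had smaller changes. Sdhb, the iron-sulfur subunit, had 113, 142 and 203 TPM in the selenium group, against 136, 151 and 163 TPM in controls (lowest, median, highest). Sdhc and Sdhd anchor the enzyme in the membrane and bind quinone. Sdhc averaged 99.1 ± 23.7 TPM with selenium and 104 ± 6.55 TPM in controls (SD, n = 6 each), and Sdhd averaged 78.4 ± 6.62 TPM with selenium and 69.8 ± 16.9 TPM in controls. Their log2 changes were -0.05 (95% interval -0.36 to 0.25) for Sdhb, -0.10 (95% interval -0.41 to 0.21) for Sdhc and 0.20 (95% interval -0.14 to 0.53) for Sdhd. Sdha and Sdhd shared the low value in control library 5, and Sdhb and Sdhc did not, being at 150.4 and 106 TPM there.

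Complex III takes electrons from quinol to cytochrome c. Its 8 members summed to 2356 ± 433 TPM with selenium and 2476 ± 189 TPM in controls, with 4 positive and 4 negative changes. The small subunits were its most abundant transcripts. Uqcr10 averaged 502 ± 102 TPM with selenium and 488 ± 40.4 TPM in controls, Uqcrh, the acidic hinge protein, 455 ± 68 TPM with selenium and 429 ± 56.3 TPM in controls, and Uqcr11 415 ± 108 TPM with selenium and 435 ± 48.3 TPM in controls (SD, n = 6 each). Their log2 changes were 0.02, 0.08 and -0.10 in that order, with every interval across 0.

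Uqcrb, a quinone-binding subunit, was the complex III gene with the smallest p. It had 249, 353 and 399.9 TPM in selenium libraries (lowest, median, highest), against 369.9, 458 and 562 TPM in controls. All 6 selenium libraries were under the control median, 3 were under every control, and 4 controls were above every selenium library. The log2 change was -0.41 (95% interval -0.72 to -0.10), with an adjusted p of 0.162 (limma). Of its 75-base stretches, 29.1% also occur in another annotated gene, so part of its reads could be assigned elsewhere.

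Uqcrc1, a core protein, had a positive change. It had 91.6, 108 and 156 TPM in selenium libraries (lowest, median, highest), against 69.6, 98.2 and 115 TPM in controls, with 2 selenium libraries above every control. Its log2 change was 0.24 (95% interval -0.08 to 0.57), and that of Uqcrfs1, the Rieske iron-sulfur protein, was -0.15 (95% interval -0.40 to 0.11). Uqcrc2, the other core protein, averaged 94.5 ± 8.08 TPM with selenium and 90.9 ± 10.5 TPM in controls, and Uqcrq, a small subunit, 324 ± 86.4 TPM with selenium and 363 ± 60.4 TPM in controls. Neither interval of Uqcrc1 and Uqcrfs1 excluded 0, and adjusted p were 0.408 and 0.55 (limma).

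Complex IV, cytochrome c oxidase, reduces oxygen. Its 14 members summed to 3619 ± 719 TPM with selenium and 3986 ± 370.3 TPM in controls. Of the 10 general subunits, 1 change was positive and 9 negative, and with median-of-ratios scaling the split was 4 positive and 6 negative. Cox6c, a small general subunit and the most abundant complex IV transcript, had 441, 557 and 671 TPM in selenium libraries (lowest, median, highest), against 557, 735 and 838 TPM in controls. Its selenium libraries were all below the control median, and 5 of 6 controls exceeded every selenium library, while control library 6 (557 TPM) lay among them. Its estimated log2 change was -0.38 (95% interval -0.68 to -0.08), with an adjusted p of 0.182 (limma).

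Cox7b, another small general subunit, showed the same arrangement. It had 96.1, 117 and 146 TPM in selenium libraries (lowest, median, highest), against 122, 156 and 199 TPM in controls, again with 5 of 6 controls above every selenium library. On the log2 scale the change was -0.41 (95% interval -0.71 to -0.11), with an adjusted p of 0.158 (limma). Cox7c, at 558 ± 103 TPM with selenium and 673 ± 95.9 TPM in controls, had a change of -0.28 (95% interval -0.60 to 0.04). Cox4i1, the general form of subunit 4, averaged 638 ± 193 TPM with selenium and 619 ± 59.5 TPM in controls (SD, n = 6 each). Its change was -0.0023 (95% interval -0.37 to 0.37), and selenium library 2 was the highest of all at 964 TPM. Cox5a and Cox5b, subunits on the matrix side, averaged 170.3 ± 31.9 TPM with selenium and 157 ± 22.7 TPM in controls for Cox5a and 202 ± 67.3 TPM with selenium and 236 ± 50.3 TPM in controls for Cox5b, with changes of 0.11 and -0.27.

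The isoform pairs of complex IV differed in level by wide margins in this tissue. Cox6a1, the liver form, averaged 295 ± 89 TPM with selenium and 286 ± 24.8 TPM in controls, and Cox6a2, the heart and muscle form, reached at most 0.49 TPM outside selenium library 4. Cox6b1, the general form, averaged 582 ± 146 TPM with selenium and 623 ± 74.6 TPM in controls, and Cox6b2, the testis form, 0.668 ± 0.513 TPM with selenium and 1.58 ± 0.383 TPM in controls. Cox4i2, the lung form of subunit 4, was listed between 0 and 0.35 TPM in selenium libraries and between 0 and 2.09 TPM in controls. Cox7a2, the liver form of subunit 7a, averaged 197 ± 32.8 TPM with selenium and 205 ± 18.6 TPM in controls, and Cox7a2l, a related protein that helps join complexes III and IV, 67.6 ± 11.8 TPM with selenium and 60.8 ± 10.0 TPM in controls. Cox8a, the general form of subunit 8, averaged 229 ± 56.9 TPM with selenium and 244 ± 17.7 TPM in controls.

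Cox6b2 had the smallest p of all members although its level was near the limit. It had 0.23, 0.435 and 1.49 TPM in selenium libraries (lowest, median, highest), against 0.95, 1.58 and 2.05 TPM in controls. Selenium libraries 3 and 4 (1.12 and 1.49 TPM) lay within the control range, and the other 4 lay below every control. The log2 change was -0.67 (95% interval -1.05 to -0.29), with an adjusted p of 0.0961 (limma), and over the alternatives tried the smallest adjusted p of any member was 0.0515, for this gene with TPM rescaled without mitochondrial-encoded genes. At such levels the pseudocount of 1 understates a change, and the log2 change was -0.92 with a pseudocount of 0.5 and -1.34 with 0.1, with adjusted p of 0.0996 and 0.108 (limma). The gene reached 1 TPM in 2 selenium libraries and 5 controls, so it entered the test mainly through the controls.

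The muscle isoforms were high in 1 library, and Cox8b is a member only through it, since its mean over the other 11 libraries was 0.204 TPM. Cox8b was at 10.85 TPM in selenium library 4 and at most 0.98 TPM in the other 11 libraries, with 7 of the 12 listed at 0. Cox6a2 was at 6.17 TPM in selenium library 4 and at most 0.49 TPM elsewhere. Cox7a1 had 1.78, 4.55 and 13.9 TPM in selenium libraries (lowest, median, highest), against 4.33, 4.7 and 7.14 TPM in controls, with 13.9 TPM in selenium library 4, 10.1 TPM in selenium library 2 and 1.78 TPM in selenium library 6. The general partners showed no such jump there. In selenium library 4, Cox8a was at 265 TPM, Cox6a1 at 343 TPM and Cox7a2 at 249 TPM, and Cox8a and Cox6a1 were higher still in selenium library 2 (316 and 448 TPM).

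Striated muscle markers were highest in that same library. Ckm, the muscle creatine kinase, was at 30.8 TPM, Acta1, skeletal actin, at 58.5 TPM, Tnnt3, a fast troponin, at 48.2 TPM, Mb, myoglobin, at 33.7 TPM and Myh4, a fast myosin heavy chain, at 7.41 TPM. Outside it Tnnt3 and Myh4 were listed at 0 in all other libraries, and Ckm, Acta1 and Mb reached at most 0.06, 0.25 and 0.43 TPM. Myh6, the cardiac myosin, was at 0.43 TPM there and reached 0.7 TPM in control library 6. Slc25a4, the heart and muscle form of the ADP/ATP carrier, was at 7.74 TPM in selenium library 4 and averaged 2.29 ± 2.75 TPM with selenium and 1.81 TPM in controls. The 5 adipocyte markers summed to at most 0.96 TPM in any library. In selenium library 2, where Cox7a1 was also high, all 6 muscle markers were listed at 0. The part of muscle RNA in the levels of the other members in selenium library 4 was not tested, and the counts without that library are given above.

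**Figure D4:**
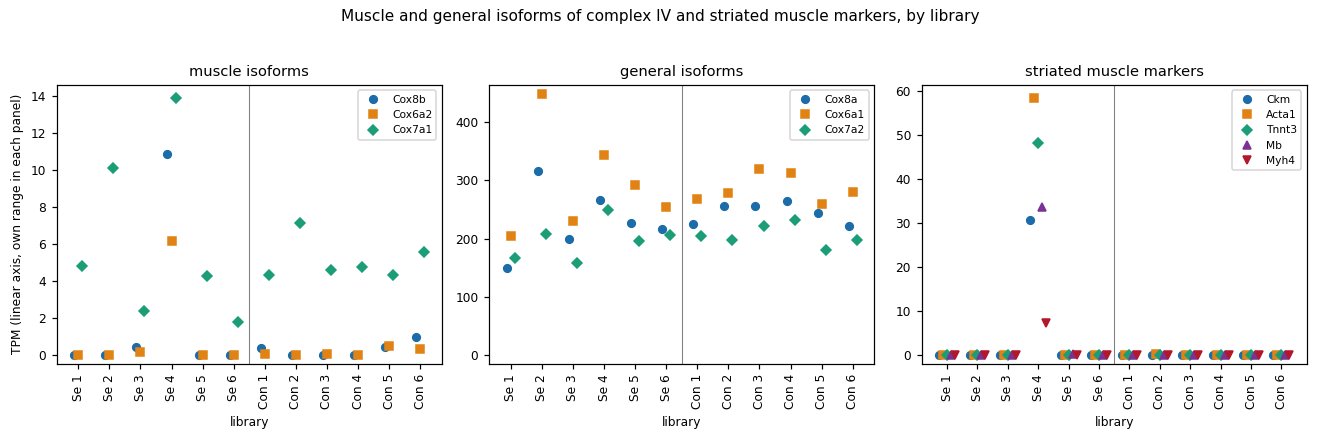
TPM on a linear axis for muscle isoforms of complex IV (left), their general partners (middle) and 5 striated muscle markers (right) in each library, selenium libraries before controls; each panel has its own range. Selenium library 4 alone is high for Cox8b, Cox6a2 and all 5 markers, while Cox7a1 is also high in selenium library 2.

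ATP synthase joins a soluble F1 head, where ATP is made, to a membrane rotor of c subunits, held together by a peripheral stalk. Its 17 members summed to 5689 ± 1050.0 TPM with selenium and 5915 ± 430.5 TPM in controls, with 5 positive and 12 negative changes. That split was 12 positive and 5 negative with median-of-ratios scaling, so no direction is given for the complex. Atp5md, a small membrane subunit and the most abundant of all 91 members, had 506, 704 and 937 TPM in selenium libraries (lowest, median, highest), against 643, 783 and 944 TPM in controls, with overlapping groups and a change of -0.20 (95% interval -0.54 to 0.13). Atp5mpl, another small membrane protein, averaged 579 ± 99.8 TPM with selenium and 635 ± 68 TPM in controls.

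In the F1 head, Atp5a1 encodes the alpha subunit and Atp5b the catalytic beta subunit. Atp5a1 had 216, 250.1 and 279.6 TPM in selenium libraries (lowest, median, highest), against 129.8, 199 and 256 TPM in controls. All selenium libraries were above the control median, 4 controls lay below every selenium library, and control library 5 was the lowest. Limma estimated a log2 change of 0.34 (95% interval 0.02 to 0.67), with an adjusted p of 0.241 (limma), and it was 0.23 without control library 5. Atp5b had 539, 627 and 736 TPM in selenium libraries (lowest, median, highest), against 602, 639 and 746 TPM in controls, with a change of -0.05 (95% interval -0.30 to 0.20). The central stalk that turns inside the head is made of the gamma, delta and epsilon subunits. Atp5c1 (gamma) averaged 233 ± 41 TPM with selenium and 241 ± 19.8 TPM in controls, Atp5d (delta) 155 ± 33.7 TPM with selenium and 145 ± 13.7 TPM in controls and Atp5e (epsilon) 460.1 ± 143 TPM with selenium and 516 ± 76.2 TPM in controls (SD, n = 6 each). Their changes were -0.06 (95% interval -0.34 to 0.21) for Atp5c1, 0.08 (95% interval -0.22 to 0.38) for Atp5d and -0.21 (95% interval -0.62 to 0.20) for Atp5e, none with an interval that excluded 0.

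The c subunit of the rotor comes from 3 genes that encode the same mature protein. Atp5g3 averaged 599 ± 96.4 TPM with selenium and 546 ± 64 TPM in controls (SD, n = 6 each) and Atp5g1 253 ± 76.9 TPM with selenium and 227 ± 12.6 TPM in controls. Atp5g2 was hardly present, with 0.76, 1.06 and 2.71 TPM in selenium libraries (lowest, median, highest), against 0.83, 1.09 and 2.28 TPM in controls, and selenium library 2 and control library 6 were each well above the rest of their group. The log2 changes were 0.10 for Atp5g1, 0.03 for Atp5g2 and 0.13 for Atp5g3, with every interval across 0. That of Atp5g2 turned to -0.03 with TPM rescaled without mitochondrial-encoded genes, and that of Atp5g1 to -0.02 without selenium library 2.

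All 4 peripheral stalk genes had a negative change on the TPM scale, and 2 of 4 with median-of-ratios scaling. Atp5j, coupling factor 6 of the stalk, had 163, 228 and 262 TPM in selenium libraries (lowest, median, highest), against 198, 277 and 364 TPM in controls. Its selenium libraries were all under the control median and 2 were under every control. Between the groups the log2 change was -0.36 (95% interval -0.71 to -0.01), with an adjusted p of 0.258 (limma). Atp5o, the subunit that ties the stalk to the head (OSCP), averaged 209 ± 51 TPM with selenium and 210.1 ± 18.4 TPM in controls, Atp5pb, subunit b, 177 ± 25.8 TPM with selenium and 183 ± 20.8 TPM in controls and Atp5h, subunit d, 338 ± 85.3 TPM with selenium and 385 ± 57.6 TPM in controls. Their changes were -0.04 for Atp5o, -0.05 for Atp5pb and -0.21 for Atp5h. The small membrane subunits e (Atp5k), f (Atp5j2) and g (Atp5l), which help hold the enzyme in rows of dimers, had changes of -0.01, -0.05 and -0.06 in that order. Atpif1 (newer symbol Atp5if1), the inhibitor that stops ATP synthase from running in reverse, is named outside the members. It averaged 19.8 ± 3.17 TPM with selenium and 25.7 ± 5.56 TPM in controls, with a log2 change of -0.35 and an adjusted p of 0.215 (limma), and control library 5 was the highest at 36.5 TPM.

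Control library 5 lay at the low end of the controls for some members and at the high end for others. It was the lowest control for Sdha, Sdhd, Uqcrc1, Ndufv1, Atp5a1 and Cox7a2l, and the highest control for Uqcrb (562 TPM), Cox7b (199 TPM), Cox7c (777 TPM), Atp5j (364 TPM), Atp5e (619 TPM) and Ndufa6 (200.1 TPM). In all it was the lowest control for 23 of 91 members (25.3%), against 29.9% of all genes tested, and the highest for 34 (37.4%), against 19.5% of all genes tested. Only the share at the high end exceeded that of all genes tested. Without control library 5, 0 members passed the threshold, and the unadjusted p was under 0.05 for 0 members in the higher direction and 5 in the lower, against 2 and 9 with all libraries. Leaving out selenium library 3 gave the same counts, and leaving out selenium library 4 or 6 or control library 2 also gave 0 higher.

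The authors' deposited table gives a separate log2 fold change and adjusted p per gene, whose sign is turned here to selenium over control. Of the 89 members, 1 was higher in the authors' deposited table at an adjusted p under 0.05 (6.97% of all genes tested) and 0 were lower (2.9% of all genes tested). That gene was Atp5b, with a log2 fold change of 0.47 and an adjusted p of 0.0398 in the authors' deposited table. On TPM the same gene averaged 635 ± 87.3 TPM with selenium and 652 ± 51.6 TPM in controls, with overlapping groups. Next in the authors' deposited table were Sdha (0.62, adjusted p 0.0503) and Atp5a1 (0.41, adjusted p 0.0718).

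The authors' deposited table placed the members higher as a whole than log2(TPM + 1) did. Their median log2 fold change in the authors' deposited table was 0.01, with 46 of 89 positive, beside a median of 0.06 over all genes tested. The fold changes in the authors' deposited table exceeded those from log2(TPM + 1) by a median of 0.10 over the members and 0.08 over all genes tested. For 75 of 89 members the difference was under 0.2, and for 23 the sign differed. The largest differences from the authors' deposited table were for Atp5b (0.52), Ndufs1 and Cox7a1 (0.41 each) and Ndufc1 (0.39). What set Atp5b apart was not tested.

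**Figure D5:**
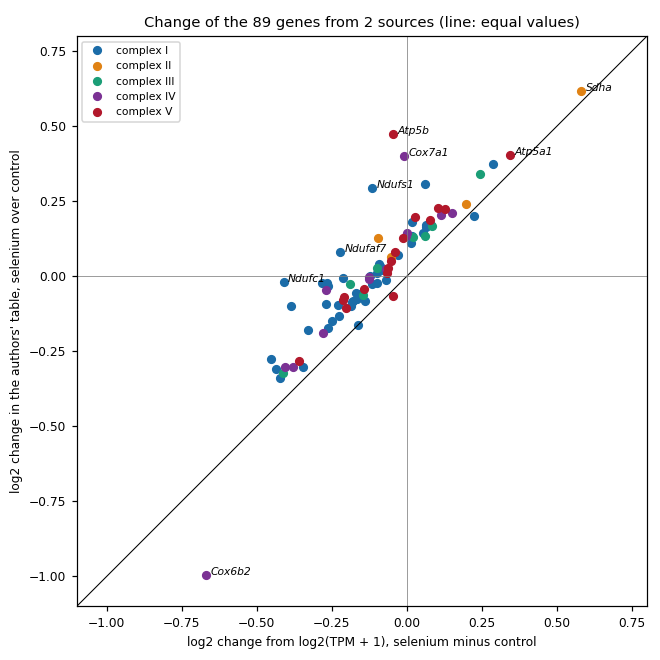
Log2 change of each of the 89 genes from log2(TPM + 1) on the horizontal axis and in the authors' deposited table on the vertical axis, selenium over control, coloured by complex, with a line of equal values. Most points lie a little above the line, Atp5b, Ndufs1 and Cox7a1 lie farthest above it, and Cox6b2 lies below it.

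The subunits encoded in mitochondrial DNA, which join the members in complexes I, III, IV and V, had the larger differences. On the TPM scale all 13 had a negative change, with a median of -0.60, and 1 of them, mt-Atp6, passed the adjusted threshold (adjusted p 0.0439, limma), where 0.311% of all genes tested were called lower. The authors' deposited table calls 5 of the 13 lower, where it calls 2.9% of all genes tested lower. For each 100 TPM of these 13 subunits, the members together held 15.9 ± 5.90 TPM with selenium and 11.03 ± 2.09 TPM in controls (SD, n = 6 each). The lowest, median and highest were 10.9, 13.1 and 26.5 with selenium, against 8.49, 11.1 and 13.6 in controls, so the groups overlapped. Selenium libraries 2 (19.1) and 4 (26.5) were above every control, and selenium library 5 (13.7) was just above the highest control. Selenium library 4 combined the smallest mitochondrial-encoded share of all libraries (8.10%) with the highest sum of members.

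Other genes of the pathway came from lists written from general knowledge. Of 12 tested electron carriers and further subunits, 4 changes were positive and 8 negative and none passed the limma threshold. Cycs, cytochrome c, averaged 24.4 ± 4.23 TPM with selenium and 29 ± 2.37 TPM in controls, and Cyc1, the cytochrome c1 of complex III whose symbol lies outside the name pattern, 82.8 ± 21.8 TPM with selenium and 77.3 ± 12.3 TPM in controls. Gpd2, the glycerol phosphate dehydrogenase that feeds the quinone pool, had the smallest p of the list, at 4.41 ± 0.515 TPM with selenium and 3 ± 0.954 TPM in controls, a change of 0.47 and an adjusted p of 0.148 (limma). It is the 1 gene of this list that the authors' deposited table calls, with a log2 fold change of 0.63 and an adjusted p of 0.0222.

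Of 44 tested assembly factors outside the name pattern, 0 passed the limma threshold, with 16 positive and 28 negative changes and a median of -0.11. At an unadjusted p under 0.05, 3 were higher (7.01% of all genes tested) and 8 lower (11.4% of all genes tested). Cox20, which helps mature a mitochondrial-encoded subunit of complex IV, averaged 46.2 ± 6.15 TPM with selenium and 69.1 ± 16.6 TPM in controls, a change of -0.55 with an adjusted p of 0.117 (limma). Sco2 and Cox17, which deliver copper to complex IV, had changes of -0.51 and -0.45, and Sdhaf1, which helps load the cluster of Sdhb, -0.45. Taco1, a translational activator of a complex IV subunit, was at 0.47 and Nubpl, an iron-sulfur factor of complex I, at 0.47. The authors' deposited table calls 3 of the list higher (6.97% of all genes tested), Taco1 (0.66, adjusted p 0.00365), Nubpl (0.78, adjusted p 0.0133) and Atpaf2, an assembly factor of the F1 head (0.44, adjusted p 0.00358), and 0 lower.

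The supply routes showed other splits, and none of their genes passed the limma threshold. Of 19 citrate cycle and pyruvate genes, 13 had a positive change, the median being 0.10, and Pcx, pyruvate carboxylase, had the largest at 0.48. Of 12 coenzyme Q synthesis genes 7 were positive, with a median of 0.04, and Coq9, a lipid-binding factor of that synthesis, was at 0.34. Among 6 carriers of ATP and phosphate, Slc25a5, the general ADP/ATP carrier, averaged 225 ± 20.0 TPM with selenium and 224 ± 21.1 TPM in controls. Of 16 regulators of these genes 8 were positive. Tfam, which packs and transcribes mitochondrial DNA, averaged 16.2 ± 5.06 TPM with selenium and 12.6 ± 3.68 TPM in controls, and Gabpa and Nrf1, factors known to bind promoters of respiratory genes, had changes of -0.07 and 0.09. Ppara, a receptor of the fasting response, had the largest change at 0.96 with an adjusted p of 0.17 (limma). It averaged 8.67 ± 6.23 TPM with selenium and 3.59 ± 1.77 TPM in controls. Selenium library 3 was at 20.5 TPM, and the other selenium libraries reached at most 9.25 TPM. Citrate cycle genes that pass as higher in the authors' deposited table number 3 (6.97% of all genes tested), Pcx (0.53, adjusted p 0.0139) and 2 subunits of the oxoglutarate dehydrogenase complex, Ogdh (0.47, adjusted p 0.0223) and Dlst (0.44, adjusted p 0.00787). Of the regulators the authors' deposited table calls 1, Ppara (1.37, adjusted p 0.00406), and it calls none of the coenzyme Q genes and carriers.

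The promoters printed above belong to a larger set searched for the same motifs, and each motif was held by a minority of members. RefSeq windows matched 76 of the 91 members by symbol. Shares are of genes with a window, and a gene counts if any of its windows holds the motif. The NRF1 motif, GCGCA followed directly by TGCGC, is the same on both strands. It was held by 9.21% of members, against 2.49% of all genes tested and 1.07% of all genes with a window. The ETS motif CCGGAAG, searched on both strands like the next one, was held by 25.0% of members, 22.1% of all genes tested and 9.93% of all genes with a window. AAGATGGCG, the motif of YY1, was in 10.5%, 4.05% and 1.64% in that order. The members with the NRF1 motif were Ndufa11, Ndufaf4, Ndufaf5, Uqcrc1, Cox6a1, Atp5g2 and Atp5k, whose log2 changes ran from -0.45 (Ndufaf4) to 0.24 (Uqcrc1). With the highest count taken for a gene with several windows, the median CpG count was 20 for members and 22 for all genes tested. Cox8b had 2 and Cox7a1 had 7. A match is a description of the letters and not of a factor's binding.

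Stretches shared with other annotated genes, on either strand, limit some of these values. For 89 members with a protein-coding transcript in GENCODE M21, 50 shared no 75-base stretch with another gene, 18 shared more than 10% of their stretches and 1 shared more than 50% (Atp5l, 76.0%). The share was 37.2% for Atp5o, 35.8% for Atp5g2, 6.85% for Cox6c and 5.32% for Atp5j. Sdha, Ndufaf4, Cox7b and Cox6b2 shared none, and Atp5a1 shared 1.90%. The other gene need not be a copy, since Atp5j shared most with Gabpa and Atp5a1 with Haus1.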

How the data were processed

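Liver RNA of 6 selenium-treated and 6 control mice was sequenced. The deposited values are TPM per gene for each library, and the tools listed in the submitters' processing notes are RSEM 1.2.8, HISAT2 2.1.0 and DESeq2 with build GRCm39, with the strand and selection of RNA not given in the sources used here. The per-sample and series tables held the same value in 100% of 684120 comparisons. The authors' deposited table also gives log2 fold changes of control over selenium, whose sign was turned, and p-values with adjustment.

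Genes with at least 1 TPM in at least 6 of 12 libraries (9980) were tested on log2(TPM + 1) with limma 3.58.1 (R 4.3.3, trended empirical Bayes, no covariates, two-sided), with Benjamini-Hochberg adjustment over all of them and a threshold of 0.05. Depth is unknown, since TPM keeps none. The exact permutation test, two-sided, ran over 924 labellings for 36 genes. The fit was tested on simulated data. The members and lists were chosen with earlier results of these data known. The genes described by a rule were the 3 with the highest mean TPM and the 3 with the smallest limma p in each complex, any past the threshold, the isoform sets, Sdha to Sdhd and Atpif1. Other members and the related genes named were chosen after their values were seen. Replicate numbers were not used as pairs. Alternatives covered the pseudocount, filter, scaling, variance model, replicate block, level of the clock gene Dbp and leaving out each library. A comparison of protein sequences was not made here. Promoter windows are from RefSeq, and 75-base stretches from GENCODE M21 transcripts. The values of 1 member are not reported here; it is part of every sum, count and median.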

Additional observations from a re-analysis of the deposited data

Results flagged for a closer look

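Of 90 groups of 6 libraries checked for a value far from its neighbours, 6 had one, and chance alone gives about 1 in 20. Cox8b was at 10.85 TPM and Cox6a2 at 6.17 TPM in selenium library 4, the library with the muscle markers, while the other selenium libraries held at most 0.45 and 0.19 TPM. Atp5g2 was at 2.71 TPM in selenium library 2 and at 2.28 TPM in control library 6, against at most 1.47 TPM in the other selenium libraries and 1.25 TPM in the other controls. Cox4i2 was at 2.09 TPM in control library 6. Atpif1 was at 36.52 TPM in control library 5, against at most 25.3 TPM in the other controls.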

How the results depend on the processing

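No member passed limma's adjusted threshold under any alternative tried, and the smallest adjusted p was 0.0515 (Cox6b2, TPM rescaled without mitochondrial-encoded genes). The median change of the members ran from -0.25 (libraries with Dbp of at least 10 TPM, an alternative chosen after seeing the data) to -0.02 (TPM rescaled without mitochondrial-encoded and Mup genes, and median-of-ratios scaling), and from -0.18 to -0.03 when 1 library was left out. The libraries with Dbp of at least 10 TPM were only selenium libraries 1 and 5 and control libraries 5 and 6. With Dbp under 10 TPM the members' median was -0.03 with 39 of 89 positive, beside 0.06 over all genes tested. Over all genes tested, the count past the threshold ran from 0 (Dbp of at least 10 TPM) to 195 (without mitochondrial-encoded genes), against 33 as reported. With the replicate block the median was -0.10 and 3 genes of all tested passed. The deviations of same-numbered libraries correlated at -0.136 to 0.107. Such values cannot show whether equal numbers share handling, and the labels name no pairs. Signs were followed through the alternatives only for the 36 genes of the permutation test, and not for every member. Of these 36, the log2 change of 11 turned sign somewhere, and the cause was not tested. With quantile normalization Cox6a1 was at 0.0181 and Cox7a1 at 0.0023. With median-of-ratios scaling Atp5b was at 0.0359, Cox4i1 at 0.0791, Sdhb at 0.0277, Cox6a1 at 0.0808, Cox7a1 at 0.067 and Cox7a2 at 0.0128. Without mitochondrial-encoded genes Uqcr10 was at -0.0757, Uqcrh at -0.0147 and Atp5g2 at -0.0257. With Dbp under 10 TPM Cox4i1 was at 0.109, Sdhb at 0.0162, Sdhc at 0.0036, Cox6a1 at 0.068 and Cox7a1 at 0.034. Without mitochondrial-encoded and Mup genes, also chosen after seeing the data, Atp5b was at 0.0373, Cox4i1 at 0.0805, Sdhb at 0.0289, Cox6a1 at 0.0821, Cox7a1 at 0.0409 and Cox7a2 at 0.0141. With Dbp of at least 10 TPM Uqcr10 was at -0.108, Atp5g1 at -0.251 and Atp5g2 at -0.304. With 1 library left out, Cox6a1 ran from -0.13 to 0.0945, Cox7a1 from -0.269 to 0.215, Cox4i1 from -0.132 to 0.0984, Sdhb from -0.15 to 0.0188, Uqcr10 from -0.0541 to 0.0858, Atp5g2 from -0.116 to 0.14 and Atp5g1 from -0.0233 to 0.222. TPM keeps no depth, so counting error could not be given.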
